A study of Arabidopsis thaliana with 14 samples.

Results

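The JAZ genes of Arabidopsis thaliana encode the repressors that hold jasmonate signalling off. The transcripts of 10 of them were followed here, taken by locus: JAZ1 (AT1G19180), JAZ2 (AT1G74950), JAZ3 (AT3G17860), JAZ5 (AT1G17380), JAZ6 (AT1G72450), JAZ7 (AT2G34600), JAZ8 (AT1G30135), JAZ9 (AT1G70700), JAZ10 (AT5G13220) and JAZ12 (AT5G20900). All 10 are listed in both count tables, which hold 21912 genes for plants grown in soil and 33602 genes for seedlings grown in medium. Messenger RNA was sequenced from full plants of ibm1-1 and of Col-0, the wild type in whose background the mutant stands. The ibm1-1 mutant carries a point mutation in IBM1, a histone demethylase that removes methyl groups from lysine 9 of histone H3. In the soil experiment, ibm1-1 and Col-0 seedlings were raised for 5 days on Murashige and Skoog plates and then for 10 days in non-sterile soil, and each genotype had 3 biological replicates of pooled seedlings. The sample labels give their age as 2 weeks. In the medium experiment, ibm1-1 and Col-0 seedlings were taken at 7 days from sterile solid Murashige and Skoog medium, with 2 biological replicates of each genotype. The second experiment asked whether the differences seen in soil also appear without soil microbes. Because plants were sequenced whole, fewer cells of a type and less RNA per cell cannot be told apart.

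Jasmonates are lipid hormones made after wounding, chewing and infection by some pathogens. At low hormone levels, JAZ proteins bind MYC transcription factors such as MYC2 and recruit the co-repressor TOPLESS, for most JAZ proteins through the adaptor NINJA. The hormone conjugate jasmonoyl-isoleucine joins JAZ proteins to the F-box receptor COI1, upon which they are degraded and the MYC factors are released. Most JAZ genes are themselves MYC targets and are induced by jasmonate, which forms a negative feedback loop.

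The 6 soil libraries held between 19957585 and 27001069 counts and the 4 medium libraries between 18260809 and 21411230. The spread between replicates was smaller in soil, with a common biological coefficient of variation of 0.0390, against 0.106 in medium. The mutation in ibm1-1 is a single-base change, so the level of IBM1 itself checks the genotype labels only in part. IBM1 had 19.2 ± 0.633 CPM (counts scaled to the size of the library) in ibm1-1 and 25.8 ± 0.750 CPM in Col-0 in soil (SD, n = 3), and 17.2 ± 0.00122 CPM in ibm1-1 and 26.2 ± 1.54 CPM in Col-0 in medium (SD, n = 2). All 4 green shoot markers and all 5 root markers had counts in both experiments. In soil, the green shoot markers LHCB1_3 (log2 fold change -0.35, adjusted p = 1.6e-06) and PSAD1 (-0.27, adjusted p = 9.7e-05) fell in ibm1-1, while RBCS1A (-0.09) and RCA (0.02) were not called. The 4 summed to 27119 to 32726 CPM in ibm1-1 and 32204 to 34088 CPM in Col-0 in soil, and to 22183 to 23401 CPM in ibm1-1 and 23932 to 26250 CPM in Col-0 in medium, where none was called (0 with DESeq2 and 0 at an unadjusted p below 0.05). In the joint test of Col-0, soil minus medium was 1.93 for LHCB1_3, 0.92 for PSAD1, 0.04 for RBCS1A and -0.32 for RCA on the log2 scale. Summed root markers reached 9.20 to 10.5 CPM in ibm1-1 and 10.3 to 11.9 CPM in Col-0 in soil. In medium they reached 38.1 to 51.4 CPM in ibm1-1 and 52.6 to 65.9 CPM in Col-0. CASP1 fell in ibm1-1 in soil (-0.38, edgeR adjusted p = 0.020, not called with DESeq2) and in medium (-0.75, edgeR adjusted p = 0.0063). The other 4 root markers were not called. In the joint test of Col-0, soil minus medium was -2.36 for EXPA7, -2.82 for EXPA18, -2.24 for COBL9, -2.67 for LRX1 and -1.84 for CASP1. The part of both marker lists in the results was not tested.

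In soil, most JAZ transcripts were lower in ibm1-1. Of the 10 members, all of which passed the filter on low counts, 8 fell in ibm1-1 at an adjusted p below 0.05 (edgeR quasi-likelihood test, Benjamini-Hochberg), where 25.9% of all 20082 genes tested fell. No member rose, against 25.4% of all genes, and none did so at an unadjusted p below 0.05 or with DESeq2. A fall of more than 2-fold was found for 4 members (JAZ6, JAZ7, JAZ8 and JAZ9), where 2.39% of all genes fell as far. In the same 8 members every ibm1-1 library was below every Col-0 library, as for 28.7% of all genes. The median log2 fold change of the 10 members was -0.78, and that of all genes tested was 0.00.

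JAZ7 and JAZ8, which lack the usual degron that COI1 binds and carry their own EAR motif for TOPLESS, changed most. JAZ7, also known as a brake on dark-induced leaf senescence, had 1.06, 1.15 and 1.35 CPM in the ibm1-1 libraries, against 18.5, 19.3 and 17.7 CPM in the Col-0 libraries. These values rest on 26, 29 and 34 counts in ibm1-1 and on 479, 368 and 418 counts in Col-0. JAZ7 was thus barely detected in every ibm1-1 library and readily detected in every Col-0 library. The fitted level of JAZ7 was 15.5-fold lower in ibm1-1 (log2 fold change -3.95, SE 0.123, adjusted p = 9.1e-22). JAZ8 had 0.819, 0.672 and 0.438 CPM in the ibm1-1 libraries, against 2.13, 2.99 and 3.68 CPM in the Col-0 libraries. It was scarce in both genotypes and the groups did not overlap, with a log2 fold change of -2.17 (SE 0.258, adjusted p = 2.7e-08).

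JAZ6 and JAZ9 had the highest levels per length of exon in Col-0 in soil, and both fell by more than 2-fold. JAZ6 had 76.3, 72.8 and 79.6 CPM in ibm1-1, against 186, 195 and 196 CPM in Col-0, a log2 fold change of -1.33 (SE 0.0438, adjusted p = 3.3e-21). JAZ9, a close relative of JAZ3, had 157, 145 and 151 CPM in ibm1-1, against 347, 346 and 347 CPM in Col-0. Its log2 fold change was -1.20 (SE 0.0410, adjusted p = 8.6e-21). For both genes the replicates lay close together and far from those of the other genotype.

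JAZ1, JAZ2 and JAZ3 fell by less than 2-fold. JAZ1, one of the repressors of MYC2 and a partner of the DELLA growth repressors, had 54.5, 57.2 and 57.0 CPM in ibm1-1, against 85.0, 82.5 and 85.0 CPM in Col-0 (log2 fold change -0.58, SE 0.0446, adjusted p = 2.6e-12). JAZ2, known for its role in guard cells, had 45.1, 46.4 and 45.7 CPM in ibm1-1, against 76.2, 77.8 and 73.7 CPM in Col-0 (log2 fold change -0.73, SE 0.0460, adjusted p = 2.8e-14). JAZ3, whose dominant allele jai3-1 makes plants insensitive to jasmonate, had 30.7, 33.3 and 31.9 CPM in ibm1-1, against 57.9, 54.5 and 58.2 CPM in Col-0 (log2 fold change -0.83, SE 0.0513, adjusted p = 1.5e-14). In all 3 genes the libraries of the 2 genotypes were well apart.

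The remaining members differed little or not measurably. JAZ12, which the ubiquitin ligase KEG keeps stable, had 57.4, 61.6 and 56.7 CPM in ibm1-1, against 65.0, 68.3 and 62.9 CPM in Col-0. Its log2 fold change of -0.16 (SE 0.0483, adjusted p = 0.0068) was the smallest that passed, and it did not pass with scaling to library size alone (-0.04, adjusted p = 0.492) or to the upper quartile (-0.11, adjusted p = 0.0615). JAZ5 had 8.60, 7.20 and 7.65 CPM in ibm1-1, against 8.48, 7.34 and 8.81 CPM in Col-0, and the genotypes overlapped. Its log2 fold change was -0.08 with a 95% interval of -0.29 to 0.13 (adjusted p = 0.549). JAZ10, whose splice variants make a repressor that withstands jasmonate, had 7.66, 8.62 and 9.76 CPM in ibm1-1, against 8.48, 8.49 and 8.47 CPM in Col-0. Its log2 fold change was 0.03, with a 95% interval of -0.17 to 0.24 (adjusted p = 0.801), and the ibm1-1 libraries lay on both sides of the Col-0 libraries. JAZ12 and JAZ10 overlap genes on the opposite strand by 211 and 71 bases, and the strand setting of the counting was not given for these tables, so reads of the 2 strands may not be told apart there.

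**Figure D1:**
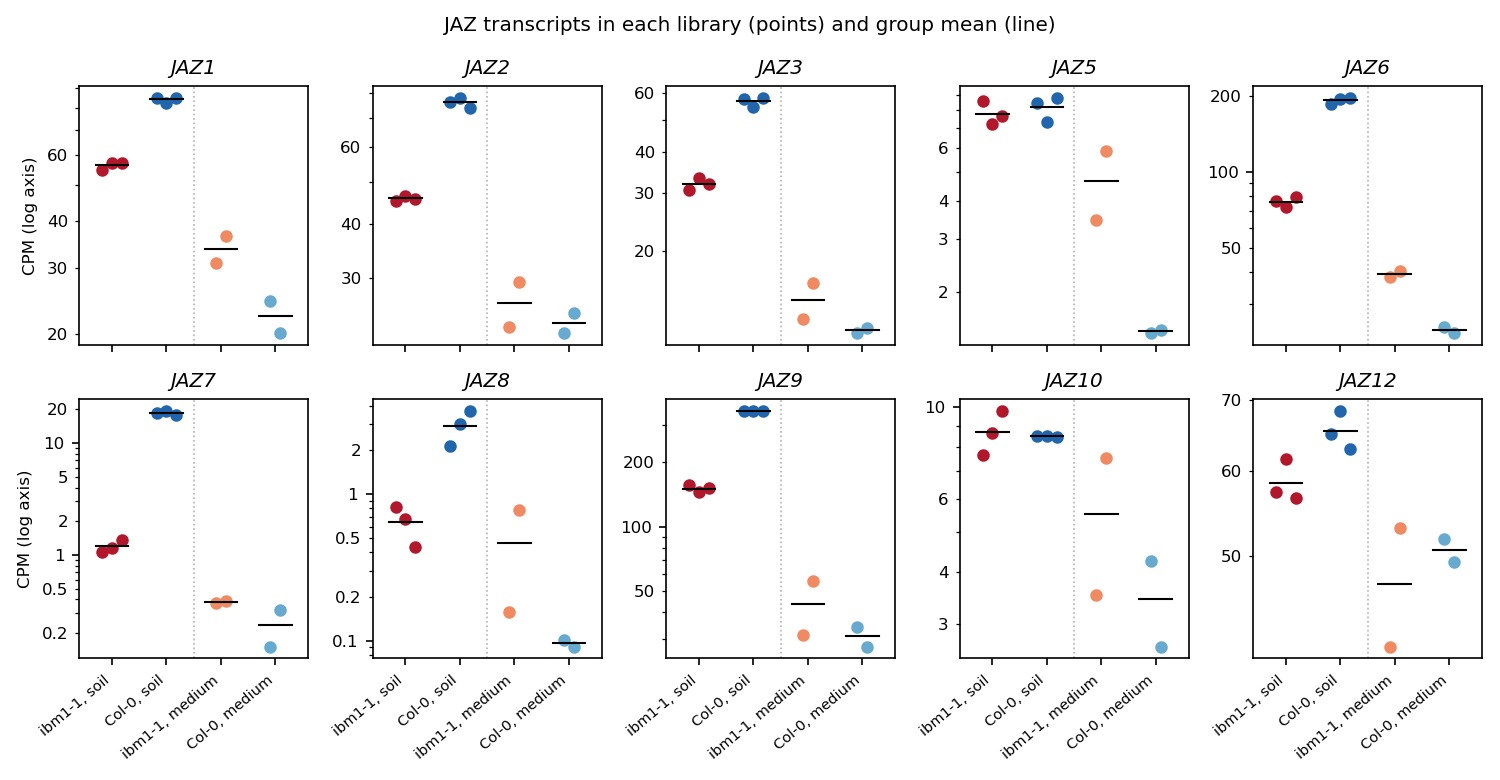
CPM of the 10 JAZ genes on a logarithmic axis, with 1 point for each library and a line at the group mean, for ibm1-1 and Col-0 in soil (3 libraries each) and in medium (2 libraries each). CPM were scaled within each experiment, and the axis differs between panels. In soil the ibm1-1 points lie below the Col-0 points in all panels but JAZ5 and JAZ10, and JAZ7 shows the widest gap (1.06 to 1.35 CPM in ibm1-1, 17.7 to 19.3 CPM in Col-0).

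Added up, the 10 members had 434 to 441 CPM in the ibm1-1 libraries and 854 to 862 CPM in the Col-0 libraries in soil. The make-up of the family also differed when levels were taken per kilobase of exon. JAZ9 made up 31.7% of the summed level in ibm1-1 and 37.8% in Col-0, and JAZ6 13.9% in ibm1-1 and 18.3% in Col-0. JAZ12 made up 21.1% in ibm1-1 and 12.3% in Col-0. JAZ7 made up 0.562% in ibm1-1 and 4.55% in Col-0.

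MYC factors bind the G-box CACGTG and, less tightly, its variant CACATG, so the 250 bases before each gene's start were read from the TAIR10.1 genome and searched for both on either strand. The start is that of the RefSeq gene model. CACGTG was found before 4 of the 10 members (JAZ2, JAZ3, JAZ7 and JAZ8) and before 6.49% of all 27442 genes. CACATG, or CATGTG on the other strand, was found before 2 members (JAZ9 and JAZ10) and before 11.1% of all genes. Either motif was found before 6 members and before 16.6% of all genes. The windows of the members that fell in soil and hold a motif are shown 5′ to 3′ on the strand of the gene, with the motif in capitals, to place it relative to the start. In JAZ7 (chr2:14572780-14573029, plus strand) the G-box begins 34 bases before the start, and in JAZ8 (chr1:10596102-10596351, plus strand) 10 bases before it.
JAZ7: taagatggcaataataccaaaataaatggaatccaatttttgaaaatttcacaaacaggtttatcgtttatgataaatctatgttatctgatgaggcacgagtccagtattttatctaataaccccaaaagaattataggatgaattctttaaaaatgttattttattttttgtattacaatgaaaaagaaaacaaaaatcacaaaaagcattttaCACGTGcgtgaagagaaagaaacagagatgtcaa
JAZ8: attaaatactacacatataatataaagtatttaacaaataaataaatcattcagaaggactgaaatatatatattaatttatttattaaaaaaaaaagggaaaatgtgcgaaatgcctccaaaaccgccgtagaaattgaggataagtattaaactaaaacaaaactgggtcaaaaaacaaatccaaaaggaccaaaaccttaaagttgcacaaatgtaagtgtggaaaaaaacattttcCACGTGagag
JAZ3 (chr3:6119457-6119706, plus strand) has 2 G-boxes that begin 140 and 82 bases before the start, and JAZ2 (chr1:28150447-28150696, minus strand) has 1 that begins at 66 bases.
JAZ3: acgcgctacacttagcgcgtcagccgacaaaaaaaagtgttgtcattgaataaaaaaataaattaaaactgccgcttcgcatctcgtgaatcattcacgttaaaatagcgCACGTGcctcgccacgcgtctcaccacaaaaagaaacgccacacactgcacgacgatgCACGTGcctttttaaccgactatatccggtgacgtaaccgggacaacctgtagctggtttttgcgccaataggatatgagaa
JAZ2: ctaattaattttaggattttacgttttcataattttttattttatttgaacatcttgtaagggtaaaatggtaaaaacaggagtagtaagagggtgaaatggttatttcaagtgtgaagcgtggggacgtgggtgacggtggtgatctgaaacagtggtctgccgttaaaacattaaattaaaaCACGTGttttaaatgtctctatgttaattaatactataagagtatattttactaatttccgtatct
JAZ9 (chr1:26654279-26654528, plus strand) has no G-box but holds CATGTG, which begins at 19 bases.
JAZ9: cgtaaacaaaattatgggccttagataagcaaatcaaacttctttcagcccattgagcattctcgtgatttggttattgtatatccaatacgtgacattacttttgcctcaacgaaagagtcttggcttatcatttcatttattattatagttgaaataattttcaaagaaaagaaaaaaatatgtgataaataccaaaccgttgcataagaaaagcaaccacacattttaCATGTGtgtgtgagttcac
No G-box or variant was found in the windows of JAZ1, JAZ5, JAZ6 and JAZ12, of which JAZ1, JAZ6 and JAZ12 also fell in soil. The windows of JAZ6 and JAZ10 overlap exons of a neighbouring gene by 102 and 235 bases.

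In sterile medium, no member fell, and 3 members rose in ibm1-1. The filter on low counts left 8 of the 10 members. JAZ1, JAZ5 and JAZ6 rose at an adjusted p below 0.05, where 11.5% of all 20871 genes tested rose. A fall was found for 0 of the 8 members, against 7.77% of all genes, and also for 0 at an unadjusted p below 0.05 and 0 with DESeq2. JAZ5 alone rose by more than 2-fold, as did 5.53% of all genes. Among the tested members, both ibm1-1 libraries were above both Col-0 libraries for JAZ1, JAZ3, JAZ5 and JAZ6, which holds for 30.8% of all genes. The median log2 fold change of the 8 members was 0.55, and that of all genes was -0.01.

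JAZ5, which did not differ measurably in soil, had 3.48 and 5.87 CPM in ibm1-1 seedlings, against 1.47 and 1.51 CPM in Col-0 seedlings. Its log2 fold change in medium was 1.65 (SE 0.309, adjusted p = 0.0057). JAZ6 had 38.4 and 40.6 CPM in ibm1-1, against 24.4 and 23.0 CPM in Col-0 (log2 fold change 0.74, SE 0.111, adjusted p = 0.0017). JAZ6 was thus higher in ibm1-1 in medium and lower in ibm1-1 in soil. JAZ1 had 30.9 and 36.5 CPM in ibm1-1, against 24.6 and 20.1 CPM in Col-0 (log2 fold change 0.59, SE 0.138, adjusted p = 0.0157). The call on JAZ1 was lost without ibm1-1 replicate 2 (0.47, adjusted p = 0.0615) and without Col-0 replicate 2 (0.45, adjusted p = 0.0739).

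The other tested members were not called in medium in the main test. JAZ9 had 31.4 and 56.1 CPM in ibm1-1, against 34.3 and 27.7 CPM in Col-0 (log2 fold change 0.50, 95% interval -0.01 to 1.01, adjusted p = 0.161). JAZ10 had 3.53 and 7.53 CPM in ibm1-1, against 4.25 and 2.65 CPM in Col-0 (log2 fold change 0.68, 95% interval -0.11 to 1.47, adjusted p = 0.205). In both genes ibm1-1 replicate 2 was the highest library and replicate 1 lay within the Col-0 range. The non-calls of JAZ9 and JAZ10 depended on the processing. Without the filter on low counts both were called by the edgeR test (0.49, adjusted p = 0.0066 for JAZ9, and 0.68, adjusted p = 0.0329 for JAZ10). Without ibm1-1 replicate 1, the log2 fold change was 0.86 for JAZ9 and 1.13 for JAZ10. Without ibm1-1 replicate 2 it was 0.04 for JAZ10, and the lowest value of JAZ9 over all alternatives was 0.02. JAZ3 had 12.5 and 16.1 CPM in ibm1-1, against 11.3 and 11.8 CPM in Col-0 (adjusted p = 0.204). JAZ2 had 23.2 and 29.4 CPM in ibm1-1, against 22.4 and 25.0 CPM in Col-0 (adjusted p = 0.503), and JAZ12 had 41.1 and 53.1 CPM in ibm1-1, against 51.9 and 49.4 CPM in Col-0 (adjusted p = 0.629). The genotypes overlapped in JAZ2 and JAZ12.

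JAZ7 and JAZ8, the members with the largest falls in soil, were near the limit of detection in medium and were not tested there. JAZ7 had 7 and 7 counts in ibm1-1, against 3 and 7 counts in Col-0. JAZ8 had 3 and 14 counts in ibm1-1, against 2 and 2 counts in Col-0. A difference between the genotypes was not detectable for these genes at this depth. The 10 members summed to 185 and 246 CPM in the ibm1-1 libraries, against 175 and 161 CPM in the Col-0 libraries.

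**Figure D2:**
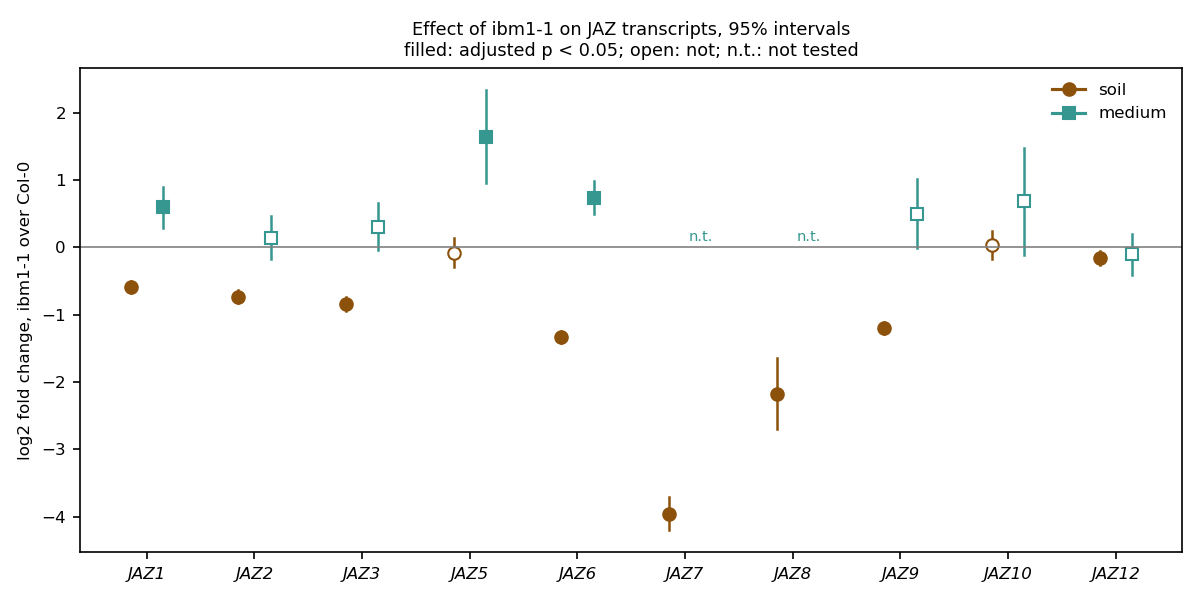
Log2 fold change of ibm1-1 over Col-0 for each JAZ gene in soil (circles) and in medium (squares), with 95% intervals as vertical lines, filled where the adjusted p is below 0.05 and open where it is not. JAZ7 (-3.95) and JAZ8 (-2.17) lie lowest in soil and are marked n.t., not tested, in medium, where JAZ5 (1.65) lies highest.

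The difference of the genotype effect between the experiments was tested on all 10 libraries (limma voom with quality weights, over the 20192 genes that passed in the joint table). JAZ7 and JAZ8 passed the joint filter only through their counts in soil, so the count was taken over the 8 members, and the 19631 genes, that also passed the filter in each experiment alone. In 6 of these 8 members the effect of ibm1-1 was lower in soil than in medium at an adjusted p below 0.05, as in 10% of all such genes, and in no member was it higher, against 7.93% of all such genes. None was higher at an unadjusted p below 0.05 or with edgeR's quasi-likelihood test on the same libraries. JAZ6 differed by -2.06 on the log2 scale (SE 0.123, adjusted p = 2.6e-10), JAZ9 by -1.62 (SE 0.206, adjusted p = 8.3e-06) and JAZ1 by -1.17 (SE 0.135, adjusted p = 2.3e-06). JAZ3 differed by -1.13 (SE 0.177, adjusted p = 0.0001) and JAZ2 by -0.86 (SE 0.139, adjusted p = 0.00014). These 5 genes had at least 224 counts in every library. JAZ5 differed by -1.62 (SE 0.436, adjusted p = 0.0117), and this call was lost without medium ibm1-1 replicate 2 (-1.26, adjusted p = 0.0512). The values of JAZ7 (-4.66, SE 0.756) and JAZ8 (-3.78, SE 1.21) are a description, since both rest on 2 to 14 counts per library in medium. JAZ8 stood at -2.74 without medium ibm1-1 replicate 2 and at -4.86 without medium ibm1-1 replicate 1. For JAZ10 (-0.60, 95% interval -1.41 to 0.21, adjusted p = 0.328) and JAZ12 (-0.04, 95% interval -0.32 to 0.24, adjusted p = 0.882) no difference was detected. JAZ10 stood at -1.16 without medium ibm1-1 replicate 1, and its values over all alternatives ran from -1.16 to -0.07. Soil, age and harvest differed together between the experiments and cannot be told apart, and the sources disagree on whether the reads of both were processed alike.

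In the wild type, all 8 members tested in each experiment were higher in soil than in medium at an adjusted p below 0.05 in the same joint fit, as were 26.4% of all such genes. The difference on the log2 scale was 3.62 for JAZ9 (SE 0.162), 3.15 for JAZ6 (SE 0.0992), 2.57 for JAZ5 (SE 0.386) and 2.42 for JAZ3 (SE 0.139). It was 2.04 for JAZ1 (SE 0.108), 1.80 for JAZ2 (SE 0.107), 1.46 for JAZ10 (SE 0.318) and 0.49 for JAZ12 (SE 0.101), and the adjusted p of these 8 members lay between 5.5e-16 and 0.00056. JAZ7 stood at 6.35 (SE 0.608) and JAZ8 at 4.71 (SE 1.03) against the few counts of medium, and these values are a description, since both genes entered the joint fit only through soil. This comparison shares the Col-0 libraries with the comparisons of the genotypes. Soil, age and harvest differed together in it too and cannot be told apart, and the processing of the reads may have differed. The 5 root markers were lower in Col-0 in soil, as given above, and their part in this comparison was not tested.

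Levels between genes were compared as CPM per kilobase of exon, scaled within each experiment. In Col-0 in soil, JAZ9 had the highest level at 187 ± 0.311 CPM per kilobase (SD, n = 3), followed by JAZ6 at 90.4 ± 2.65, JAZ12 at 60.5 ± 2.51, JAZ2 at 55.2 ± 1.49 and JAZ1 at 46.7 ± 0.793. JAZ7 stood at 22.5 ± 0.959 and JAZ3 at 20.7 ± 0.742 CPM per kilobase, close to each other, and their order turned with the length of the longest transcript (22.5 for JAZ7 and 23.8 for JAZ3). JAZ10 (3.83 ± 0.00384), JAZ5 (3.67 ± 0.346) and JAZ8 (3.64 ± 0.966) were lowest and overlapped. In Col-0 in medium, JAZ12 led with 46.8 ± 1.61 CPM per kilobase (SD, n = 2). JAZ2 (17.3 ± 1.32) and JAZ9 (16.7 ± 2.52) followed and overlapped, with their order turned by the longest transcript, and so did JAZ1 (12.4 ± 1.74) and JAZ6 (11.1 ± 0.466). JAZ3 had 4.20 ± 0.117, JAZ10 1.56 ± 0.510, JAZ5 0.664 ± 0.0128, JAZ7 0.286 ± 0.144 and JAZ8 0.119 ± 0.00859 CPM per kilobase. JAZ12 thus made up 12.3% of the family's summed level in Col-0 in soil and 42.1% in Col-0 in medium, and JAZ9 37.8% in soil and 15.0% in medium. Among all tested genes with a length, JAZ9 stood at the 97.5th percentile in soil and at the 68.2nd in medium, and JAZ12 at the 91.2nd and the 88.5th.

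**Figure D3:**
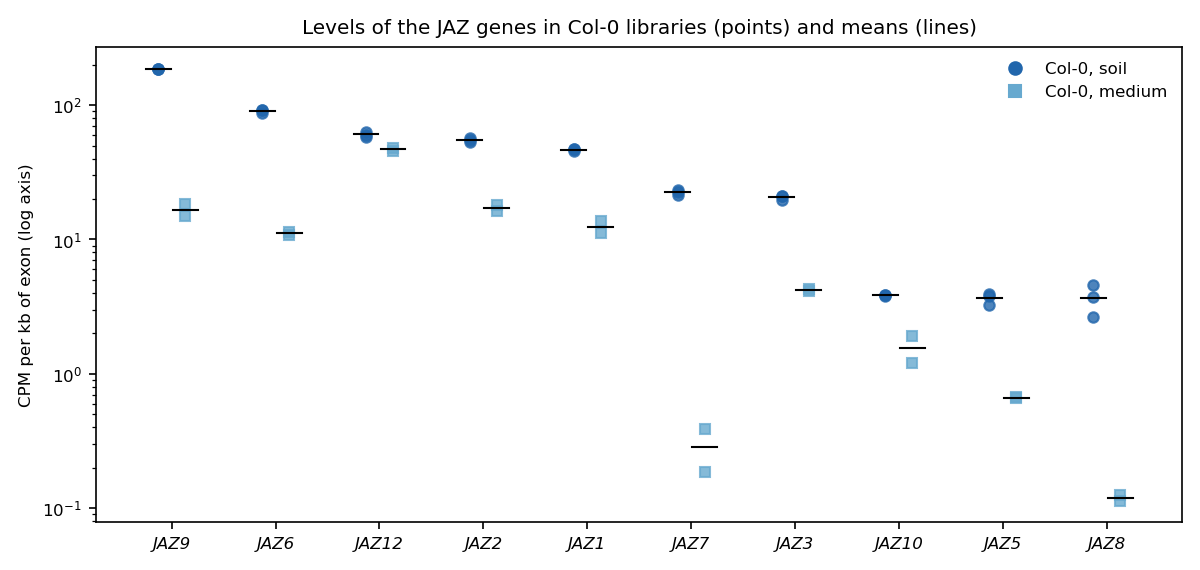
Level of each JAZ gene in Col-0, in CPM per kilobase of exon on a logarithmic axis, with 1 point for each library and a line at the mean, for soil (circles, 3 libraries) and medium (squares, 2 libraries). Genes are ordered by their level in soil. The soil points lie above the medium points for every gene, by the least for JAZ12 (60.5 and 46.8 CPM per kilobase) and by the most for JAZ7 (22.5 and 0.286). JAZ7 had only 3 and 7 counts in the medium libraries. CPM were scaled within each experiment, and the age of the plants differed between them.

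The genes around the JAZ repressors were taken from lists written from general knowledge, with earlier results of these data known. Of all genes tested, 25.9% fell and 25.4% rose in soil, and 7.77% fell and 11.5% rose in medium. These shares stand beside the counts of every list below. Of the 6 other TIFY genes, the family to which JAZ genes belong, 4 fell in soil. JAZ13, a relative of JAZ7 and JAZ8 and among these 4, had a log2 fold change of -2.73 in soil (SE 0.386). This rests on 19 counts in all ibm1-1 libraries and 117 in all Col-0 libraries. JAZ13 passed the filter on low counts only through Col-0, so its value is a description. It stood at -4.02 without ibm1-1 replicate 3. JAZ11 (-0.28), PPD2 (-0.28), a regulator of leaf growth, and TIFY8 (-0.26) fell slightly. JAZ11 was not called without Col-0 replicate 2 (adjusted p = 0.055) or ibm1-1 replicate 3 (adjusted p = 0.0672), nor PPD2 without Col-0 replicate 1 (adjusted p = 0.0523). With library size alone, JAZ11, PPD2, TPR1 and JAM2 were not called in soil. The 5 other TIFY genes tested in medium gave 0 calls, also with DESeq2 and at an unadjusted p below 0.05. Of the 7 receptor and co-repressor genes, COI1 rose slightly in soil (0.30, SE 0.0561, adjusted p = 4.9e-05), while TPR1 (-0.21) and TPR3 (-0.49), relatives of TOPLESS, fell. In medium TPR3 fell (-0.79, SE 0.138, adjusted p = 0.0038) and none rose, with 0 also by DESeq2 and at an unadjusted p below 0.05. NINJA had a log2 fold change of 0.0057 in soil (adjusted p = 0.938; 0.12 and adjusted p = 0.0444 with library size alone) and of -0.02 in medium (adjusted p = 0.916).

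Among the 7 genes of MYC factors and JAM repressors, the bHLH proteins that compete with MYC factors for their sites, 2 rose in soil (MYC4, 0.25, and JAM1, 0.28) and 2 fell (MYC2, -0.30, and JAM2, -0.27). MYC2 is overlapped over most of its length by a gene on the opposite strand, so its value is uncertain. In medium, MYC2 had a log2 fold change of -0.05 (adjusted p = 0.832), and JAM1 fell (-0.56, adjusted p = 0.008).

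Jasmonate synthesis and breakdown moved with the JAZ genes in soil for most of their genes. Over all genes, 25.9% fell and 25.4% rose in soil, and 7.77% fell and 11.5% rose in medium. Of 13 synthesis genes tested in soil, 8 fell and 3 rose, and their median was -0.49 on the log2 scale. OPR3, the reductase of the jasmonate precursor, fell by 1.65 on the log2 scale (SE 0.0426, adjusted p = 1.1e-23), and the lipoxygenases LOX3 (-1.40) and LOX4 (-1.25) and the cyclase AOC1 (-1.06) fell too. LOX2, among the 3 that rose, had 663 ± 10.1 CPM in ibm1-1 and 520 ± 23.8 CPM in Col-0 in soil (SD, n = 3). Its log2 fold change there was 0.35 (adjusted p = 3.1e-08), so it rose in both experiments. In medium, 8 of 13 rose and none fell (0 with DESeq2 and 0 at an unadjusted p below 0.05), with a median of 0.78, among them AOC1 (1.95) and LOX2 (1.95). The size for LOX2 depended on the Col-0 libraries, with 2.87 without Col-0 replicate 1 and 1.38 without Col-0 replicate 2. Of 9 catabolism genes tested in soil, 7 fell and 2 rose (6 and 2 with DESeq2), with a median of -1.09. CYP94C1, which oxidises jasmonoyl-isoleucine, fell by 3.03 (SE 0.0809, adjusted p = 2.1e-23). The jasmonate oxidase gene JOX3 stood at 3.51 (SE 0.266), on 302 counts in all ibm1-1 libraries and 24 in all Col-0 libraries. JOX3 passed the filter on low counts only through ibm1-1, and CYP94B3, among the 7, only through Col-0. Both are in the counts above, but their values are a description. In medium, 7 of 9 rose and none fell (0 with DESeq2 and 0 at an unadjusted p below 0.05), with a median of 1.38. With DESeq2 6 rose, and JOX4 was not called (DESeq2 adjusted p = 0.318). JOX3 and JOX4, among the 7 in medium, passed the filter there only through ibm1-1.

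Most genes of the jasmonate response list went the other way in soil. The list does not hold the JAZ genes, most of which are also induced by jasmonate. Of its 8 genes, 7 rose and 1 fell in soil, beside 25.4% and 25.9% of all genes. ERF1, among the 7, passed the filter on low counts only through ibm1-1. The median of the 8 was 1.12 on the log2 scale. TAT3, a tyrosine aminotransferase gene, rose by 4.40 (SE 0.0711, adjusted p = 1.9e-28) and the defensin gene PDF1_2A by 2.04 (SE 0.220, adjusted p = 4.1e-09). ORA59, an activator of defensin genes, was the exception with -1.25 (SE 0.114, adjusted p = 1.2e-10). In medium, 6 of 7 rose and none fell (0 with DESeq2 and 0 at an unadjusted p below 0.05), beside 11.5% and 7.77% of all genes. The median was 1.88. TAT3 (7.51, SE 0.749) and PDF1_2A (7.02, SE 1.02), both among these 6, were higher in ibm1-1 in medium by amounts that moved with each library. Both passed the filter on low counts there only through ibm1-1, so their values are a description. TAT3 averaged 31.8 ± 23.0 CPM in ibm1-1 and 0.174 ± 0.182 CPM in Col-0 (SD, n = 2), and its log2 fold change was 9.25 and 6.68 without Col-0 replicates 1 and 2, and 8.11 and 6.48 without ibm1-1 replicates 1 and 2. PDF1_2A averaged 84.5 ± 89.6 CPM in ibm1-1 and 0.621 ± 0.735 CPM in Col-0 (SD, n = 2), and its log2 fold change was 6.20 and 9.61 without Col-0 replicates 1 and 2, and 7.83 and 5.03 without ibm1-1 replicates 1 and 2. In the joint test, among genes tested in each experiment, the effect was lower in soil than in medium for 10% of all genes. It was lower for 9 of 13 synthesis genes, 6 of 9 catabolism genes and 2 of 7 response genes, beside 6 of 8 JAZ genes. A higher effect in soil was found for 1 synthesis gene and for 7.93% of all genes. The difference was not particular to jasmonate genes. In the list of rapid touch, wound and cold responses described below, the effect was lower for 10 of 14 genes and higher for 2.

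**Figure D4:**
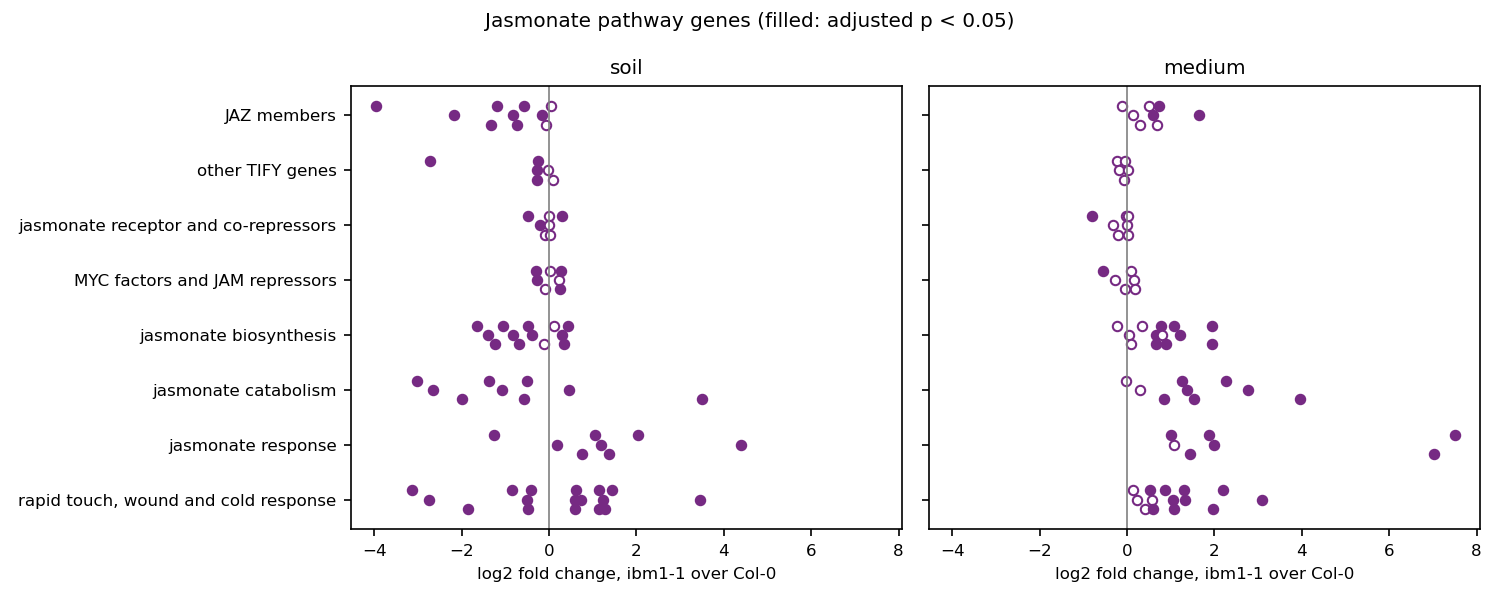
Log2 fold change of ibm1-1 over Col-0 in soil (left) and in medium (right) for the genes of each list, with 1 point per gene tested, filled where the adjusted p is below 0.05. Points are spread vertically within a list for legibility. The median of the JAZ members is -0.78 in soil and 0.55 in medium, and that of the jasmonate response genes is 1.12 in soil and 1.88 in medium.

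The 5 genes whose pattern over the 10 libraries was nearest to that of JAZ7, by the root mean square difference of log2 CPM centred on the mean of each gene among 19631 genes tested in both experiments, were TCH4 (0.481), AT5G62360 (0.764), LTI78 (0.855), CYP94C1 (0.912) and AT3G19680 (0.984). JAZ7 was taken as the reference because its change in soil was the largest of the members. It had only 3 to 7 counts per library in medium, so its pattern there is poorly known. TCH4 encodes a cell wall enzyme induced by touch, and LTI78 a protein induced by cold and drought. TCH4 had 51.1 ± 0.838 CPM in ibm1-1 and 451 ± 19.6 CPM in Col-0 in soil (SD, n = 3), and 26.7 ± 2.57 CPM in ibm1-1 and 12.9 ± 0.0147 CPM in Col-0 in medium (SD, n = 2). Many JAZ genes also respond quickly to touch and wounding. A list of 18 genes of rapid touch, wound and cold responses summed to 854 to 881 CPM in ibm1-1 and 1442 to 1544 CPM in Col-0 in soil. There 10 of its 17 tested genes rose and 7 fell (median log2 fold change 0.60), beside 25.4% and 25.9% of all genes. The list summed to 592 to 611 CPM in ibm1-1 and 396 to 414 CPM in Col-0 in medium. There 10 of 14 rose (9 with DESeq2) and none fell (0 with DESeq2 and 0 at an unadjusted p below 0.05). Of all genes, 11.5% rose and 7.77% fell in medium. EXLA1 (-2.74) and MYB44 (-1.86) fell in soil with TCH4 (-3.14), while WRKY46 (3.45) rose. The part of such responses at harvest in the JAZ values was not tested.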

How the data were processed

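Whole seedlings of ibm1-1 and Col-0 were sequenced for mRNA in soil and in medium. The authors deposited unnormalized read counts for each TAIR10 locus. For soil, the study's methods name SolexaQA, cutadapt, TopHat and HTSeq-count, whereas the submitters' processing notes name Trimmomatic 0.36, HISAT2 2.1.0 and HTSeq 0.9.1 for all mRNA samples. For medium both name Trimmomatic, HISAT and HTSeq. The strand setting is not given in the sources used here. The soil table also has 40 empty columns, and 11690 genes of the medium table are not listed in soil. Without strand, reads of genes that overlap on opposite strands would be mixed. Besides JAZ10, JAZ12 and MYC2, other listed genes have such overlaps, among them TCH3 (827 bases), MYB44 (791), TIFY8 (428) and TPR3 (161).

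In R 4.3.3, each experiment was fitted alone with edgeR 4.0.16 (filterByExpr, TMM, quasi-likelihood test, genotype only), and p-values were adjusted by Benjamini-Hochberg over all genes tested. Calls used an adjusted p below 0.05, and fold calls also a fold change above 2. A standard error is the size of the log2 change over the square root of edgeR's F statistic, and 95% intervals use the t distribution. CPM use TMM-scaled library sizes within an experiment, and group values are means with SD. The joint comparison used limma 3.58.1 (voomWithQualityWeights) on the 21912 genes of both tables. Lengths, positions and the 250-base windows come from RefSeq's TAIR10.1. The members, the lists and the tests were chosen with earlier results of these data known. Named genes were the members, COI1, NINJA, MYC2 and IBM1, and otherwise up to 4 called genes per list and experiment with the largest change, plus the 5 genes most like JAZ7. The markers, and genes named to mark a limit, came in addition. Depth limits JAZ7 and JAZ8 in medium, and spreads over replicates also hold counting error. Alternatives were other scalings (DESeq2 1.42.0 size factors, library size, upper quartile), a filter at a mean CPM of 5 or none, DESeq2's own test, voom without quality weights, edgeR on all libraries, a joint fit of genes tested in each experiment, the replicate block, the longest transcript and each library left out. The steps were tested on simulated data with the same spread in both experiments. Only genes above a mean CPM of 5 were changed in them. That test does not cover the wider spread in medium or genes as scarce as JAZ7 and JAZ8 there. The 4 bisulfite samples were not analysed here.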

Additional observations from a re-analysis of the deposited data

Results flagged for a closer look

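The effect of ibm1-1 differed between soil and medium at an adjusted p below 0.05 for 6 of the 8 members tested in each experiment (limma voom with quality weights). The difference, soil minus medium on the log2 scale, was -1.17 for JAZ1, -0.86 for JAZ2, -1.13 for JAZ3, -1.62 for JAZ5, -2.06 for JAZ6 and -1.62 for JAZ9. JAZ7 (-4.66) and JAZ8 (-3.78) also passed, but they entered the joint fit only through soil and had 2 to 14 counts per library in medium, so they were left out of the count. The age of the plants also differed between the experiments and cannot be told apart from soil, and the sources disagree on whether the reads of both were processed alike.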

How the results depend on the processing

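Of the members called in soil, 8 stayed lower with the size factors of DESeq2, without a filter, with DESeq2 itself and with the replicate block, and 7 with library size alone, the upper quartile or a mean CPM of at least 5, while the stricter threshold of a fold change above 2 left 4. Leaving out each soil library in turn gave 8 to 8. The filter at a mean CPM of 5 removed JAZ8 from the test in soil, so its call did not fail there. In medium that filter removed JAZ5 and JAZ10 from the test, and JAZ1 and JAZ6 stayed higher. In medium, 3 were higher in the main test, 5 without the filter on low counts, 1 with a fold change above 2, and 2 to 5 with each library left out. Of the 8 members tested in each experiment, the effect in soil minus in medium was below 0 in 5 with a mean CPM of at least 5 in each experiment, which removes members from the test, and in 5 to 7 with each library left out. Wild type was higher in soil in 6 members with that filter and in 8 to 8 with each library left out. Filtering low counts in each experiment alone before the joint fit, an alternative chosen after seeing the data, gave 6 and 8 members. Directions turned only for values that were not called. With library size alone these were JAZ5 in soil (0.038), COI1 in medium (-0.011) and JAZ12 in soil minus medium (0.092), and with the upper quartile COI1 in medium (-0.0097). With each library left out, values on both sides of 0 were found in soil for JAZ10 (-0.055 to 0.12) and NINJA (-0.041 to 0.049), in medium for JAZ2 (-0.032 to 0.31), JAZ12 (-0.30 to 0.069), COI1 (-0.039 to 0.066), NINJA (-0.099 to 0.051) and MYC2 (-0.22 to 0.10), and for JAZ12 in soil minus medium (-0.23 to 0.14). Library size alone moved the median of all genes in soil by 0.12. With no filter, JAZ7 (0.64, adjusted p = 0.665) and JAZ8 (2.19, adjusted p = 0.111) could be fitted in medium and were not called. Same-numbered replicates did not deviate together in soil (correlations of -0.02, 0.02 and 0.01 over genes) and did so weakly in medium (0.13). With 2 replicates per genotype, the 2 pairs in medium give the same value by construction. The numbers were not taken as pairs. With the replicate block 8 members were lower in soil and 3 higher in medium. The cause of these changes was not tested.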
